A study of Mus musculus with 12 samples.

Results

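The mitochondrial fusion, fission and mitophagy genes Mfn1, Mfn2, Opa1, Dnm1l, Fis1, Mff, Pink1, Bnip3, Bnip3l and Fundc1 were chosen for their function and matched by symbol in the 4 tables of group comparisons of mouse soleus RNA. All 10 were found among the 28997 genes listed, and all 10 had a total of at least 100 reads, as did 15494 genes in all. Their transcript levels lay close together in the 4 groups of mice. In each of the 4 comparisons between the groups, coded G1 to G4, 0 of the 10 members passed an adjusted p of 0.05. Over all genes given an adjusted p, the share called was 1.38% for G4 against G2, 0.0394% for G4 against G3, 0.21% for G3 against G1 and 0.00428% for G2 against G1, so 0 of 10 lies near the background. The 95% interval of every member in every comparison lay within a 1.5-fold change in either direction.

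Mitochondria in muscle fibres join by fusion and divide by fission, and damaged ones are delivered to lysosomes by mitophagy. The mitofusins encoded by Mfn1 and Mfn2 are GTPases that join the outer membranes, and the GTPase encoded by Opa1 joins the inner membranes and shapes the cristae. The GTPase encoded by Dnm1l constricts mitochondria after it is recruited by outer membrane adaptors, and the kinase PINK1 and the receptors BNIP3, BNIP3L and FUNDC1 mark mitochondria for autophagy. The soleus is a postural muscle with many slow fibres, in which these organelles are abundant.

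The study compared mice with a conditional Nox1 knockout under Cdh5-driven Cre (Cdh5cre-NOX1CKO) on a high-fat diet, the same genotype on chow, and Cdh5cre-WT mice, which carry the Cre by their label, on a high-fat diet or on chow. Each of these 4 groups held 3 mice, sampled after 8 weeks of diet, and age and sex were not given in the sources used here. The Cdh5 promoter drives Cre in endothelial cells, so the knockout was aimed at the vessel lining rather than the fibres, while the RNA came from whole muscle. In which cells Nox1 was deleted could not be checked here. The series title asks about endothelial NOX1, an NADPH oxidase, in relation to obesity and muscle mitochondria.

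The tables name the groups G4, G3, G2 and G1, and the labels do not say which code stands for which mice. Read in the order of the design text, G2 and G3 would swap their meaning against a reading in sample order. Differences are therefore given by code, with neither diet nor genotype attached to them. The comparisons were G4 against G2, G4 against G3, G3 against G1 and G2 against G1, and they share groups with each other. Values existed per gene and comparison, with none per mouse.

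The summed normalised reads came to a mean of 24905255 per library. Nox1 itself had a mean of 2.1 normalised reads per library, too few to check the labels, and its log2 differences in the authors' deposited tables were -0.71 for G4 against G2 (p = 0.569), 0.15 for G4 against G3 (p = 0.907) and -0.23 for G3 against G1 (p = 0.862). Slow fibre markers summed to 26132 CPM in G4, 24242 in G3, 30882 in G2 and 24176 in G1, and none of the 10 markers was near 0. In bulk muscle, fewer cells of a type and less RNA per cell cannot be told apart.

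Group levels below are normalised reads per library, computed from the deposited total and the log2 differences. The standard error (SE) of a difference is the one implied by the deposited log2 and its p-value, and the coefficient of variation (CV) between mice is the one that returns those SEs under a negative binomial model. Each CV or SD between mice given below thus rests on the authors' model and was not taken from single mice. Whether that model pooled spread across genes was not known. Divided by the length of the longest annotated transcript, the levels of the 10 genes covered a wide range. Pink1 was highest with a mean of 10072 reads per kb, followed by Mfn2 with 4871, Bnip3 with 3739, Mfn1 with 1640 and Fis1 with 1305 reads per kb. Mff followed with 785, Opa1 with 645, Dnm1l with 556, Bnip3l with 270 and Fundc1 with 172 reads per kb. This order was the same in each of the 4 groups. The closest neighbours in it were Opa1 and Dnm1l, whose levels per kb differed 1.16-fold, or 1.62 SD between mice for the 2 genes combined, and every other neighbouring pair lay more than 2 SD apart.

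**Figure D1:**
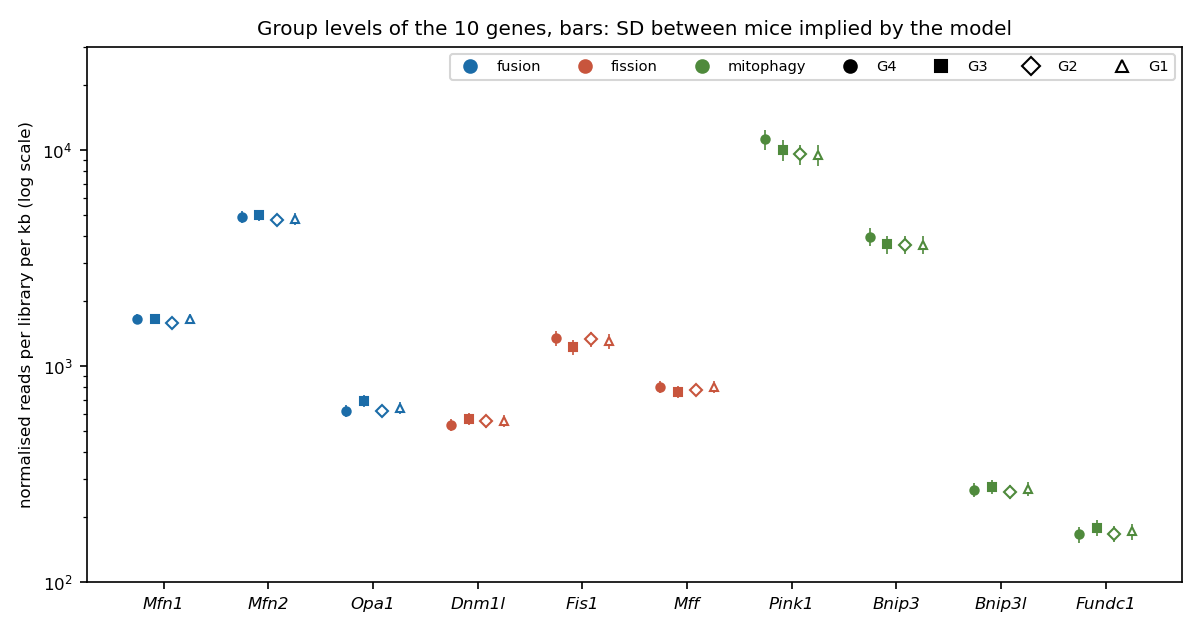
Levels of the 10 genes in G4, G3, G2 and G1, in normalised reads per library and kb of transcript on a log scale, with bars for the SD between mice implied by the model. Differences between genes reach from 172 to 10072 reads per kb, while the 4 groups of each gene lie within 0.24 on the log2 scale.

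The fusion genes differed little between groups. Mfn1 (chromosome 3, 32529465 to 32579239, GRCm38) had 7555 reads per library in G4, 7560 in G3, 7260 in G2 and 7544 in G1, with a CV between mice of 5.55%. Mfn2 (chromosome 4, 147873599 to 147904704) had 21331 reads in G4, 21640 in G3, 20724 in G2 and 20880 in G1, with a CV of 5.93%. For both mitofusins G3 was the highest and G2 the lowest group, and all 4 levels lay within 0.06 on the log2 scale. Their log2 differences farthest from 0 in the authors' deposited tables were 0.06 for Mfn1 in G4 against G2 (SE 0.07) and 0.05 for Mfn2 in G3 against G1 (SE 0.07). Opa1 (chromosome 16, 29579334 to 29654884) had 3888 reads in G4, 4307 in G3, 3861 in G2 and 4015 in G1, with a CV of 6.31%. Its G3 level stood above the other 3 groups.

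The difference in Opa1 between G4 and G3 had the smallest p-value of any member. In the authors' deposited table for G4 against G3 its log2 difference was -0.15 (implied SE 0.08, p = 0.0543, adjusted p = 0.9997), with a 95% interval from -0.30 to 0.0028. Opa1 in G3 also exceeded Opa1 in G2 by 0.16 on the log2 scale, which was 2.06 implied SEs. That pair of groups has no table of its own, and it was the only 1 of 60 pairs of groups over the 10 genes that exceeded 2 SEs, so it is given as a description. The difference for G3 against G1 was 0.10 and that for G4 against G2 was 0.010 in the authors' deposited tables, with an SE of 0.08 each.

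The fission genes also kept similar levels. Dnm1l (chromosome 16, 16312230 to 16358959) had 2131 reads per library in G4, 2265 in G3, 2202 in G2 and 2219 in G1, with a CV of 6.65%. Fis1 (chromosome 5, 136953275 to 136966234), which encodes a small tail-anchored protein of the outer membrane, had 1276 reads in G4, 1166 in G3, 1266 in G2 and 1242 in G1, with a CV of 7.99%. Mff (chromosome 1, 82724890 to 82752394), which encodes an adaptor for the Dnm1l product, had 1678 reads in G4, 1587 in G3, 1612 in G2 and 1675 in G1, with a CV of 6.09%. G3 was the highest group for Dnm1l and the lowest for Fis1 and Mff. For G4 against G3 the log2 difference was -0.09 for Dnm1l (SE 0.08), 0.13 for Fis1 (SE 0.10) and 0.08 for Mff (SE 0.08) in the authors' deposited table, each with an adjusted p of 0.9997. Fis1 and Mff had negative values for G3 against G1, at -0.09 and -0.08 in the authors' deposited table, and each lay within about 1 SE of 0.

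Pink1 had the highest level per kb and the widest range of group levels. Pink1 (chromosome 4, 138313409 to 138326307), whose kinase accumulates on damaged mitochondria, had 26608 reads per library in G4, 23798 in G3, 22726 in G2 and 22547 in G1. Its CV between mice was 10.9%, the largest of the 10 genes. The G4 level stood above the other 3, which lay close together. In the authors' deposited table for G4 against G2 its log2 difference was 0.23 (implied SE 0.13, p = 0.0782, adjusted p = 0.626), with a 95% interval of the ratio from 0.982 to 1.40. The log2 difference was 0.16 for G4 against G3 and 0.08 for G3 against G1 in the authors' deposited tables, and the value rebuilt for G2 against G1 was 0.011, each with an SE of 0.13. The genes whose centred log2 group levels lay nearest to those of Pink1 among 10668 genes were Mfge8, Mospd2 and Pofut2, at root mean square distances of 0.011, 0.011 and 0.011 over the 4 groups, a likeness that rests on 4 group levels.

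The mitophagy receptors lay below Pink1 in reads per kb. Bnip3 (chromosome 7, 138890836 to 138909519), whose product binds the autophagosome protein LC3 and is known to be induced in hypoxia, had 6994 reads per library in G4, 6430 in G3, 6425 in G2 and 6412 in G1, with a CV of 9.22%. G4 was again the highest group, and the log2 difference was 0.12 against G2 and 0.12 against G3 in the authors' deposited tables, with an SE of 0.11. The other 3 groups lay within 0.0041 of each other on the log2 scale. Bnip3l (chromosome 14, 66985239 to 67008877), which encodes the related receptor NIX, had 875 reads in G4, 903 in G3, 856 in G2 and 884 in G1, with a CV of 7.64%. Fundc1 (chromosome X, 17556564 to 17572325), another outer membrane receptor that binds LC3, had 331 reads in G4, 355 in G3, 333 in G2 and 342 in G1, with a CV of 8.54%. For both of these receptors G3 was highest, and the difference farthest from 0 in the authors' deposited tables was -0.10 for Fundc1 in G4 against G3 (SE 0.12).

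Reads of Bnip3 and Bnip3l may be divided with near-identical copies, so their levels are uncertain. Reads of Dnm1l may be divided with a less similar copy that holds a small share. Gm16439, a processed pseudogene annotated on chromosome 14, matched the Bnip3 transcript at 98.9% over 564 bases and held 34480 reads, or 43.8% of the total of Bnip3. Added to Bnip3, it gave 9977 reads per library in G4, 9160 in G3, 9322 in G2 and 9295 in G1, and G4 then exceeded G2 by 0.10 and G3 by 0.12 on the log2 scale. With those reads Bnip3 would stand at a mean of 5375 reads per kb, above Mfn2. Bnip3l-ps, a pseudogene on chromosome 12, matched Bnip3l at 99.3% over 663 bases and held 48.2% of its total. The 2 together had 1312 reads in G4, 1335 in G3, 1292 in G2 and 1273 in G1, so G4, G3 and G2 stood above G1 by at most 0.07 on the log2 scale. Gm13719 matched Dnm1l at 91.2% and held 3.35% of its total. Of the other sequences that matched Bnip3, AC160336.1 held the most reads, at 0.37% of its total (98.25% identity over 858 bases). None of the 3 copies Gm16439, Bnip3l-ps and Gm13719 passed the test in any of the 4 comparisons, and whether their reads came from the pseudogenes was not tested. Genes annotated on the opposite strand of Bnip3, Dnm1l and Mff held 24.2, 24.6 and 44.6 reads in total, under 0.3% of the total of each.

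Over the 10 genes and 4 comparisons, 0 of 40 values passed an adjusted p of 0.05 by the authors' test or by the rebuilt values, and 0 of 40 had an unadjusted p under 0.05. The share of genes with an unadjusted p under 0.05, among those with a total of at least 100, was 9.06% for G4 against G2, 4.83% for G4 against G3, 5.63% for G3 against G1 and 2.35% for G2 against G1. The last share includes rebuilt values. The smallest adjusted p of any member was 0.626, for Pink1 in G4 against G2.

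The measurements limit how large an undetected difference could be. The 95% interval of the ratio lay within a 1.5-fold change in either direction for 40 of 40 values, and the outermost bounds were 1.40 for Pink1 in G4 against G2 and 0.792 for Fundc1 in G4 against G3. To pass the threshold beside the p-values of the other genes, a member would have needed a log2 difference of 0.23 (Mfn1) to 0.44 (Pink1) in G4 against G2, and 0.28 to 0.55 in G4 against G3. The corresponding limits were 0.26 to 0.50 in G3 against G1 and 0.31 to 0.60 in G2 against G1. Smaller measured differences could not have passed with 3 mice a group. These limits apply to measured values, and a true difference near them could pass or fail. For the members rebuilt in G2 against G1, the limit was taken over 28997 genes and the adjusted p over 15494.

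**Figure D2:**
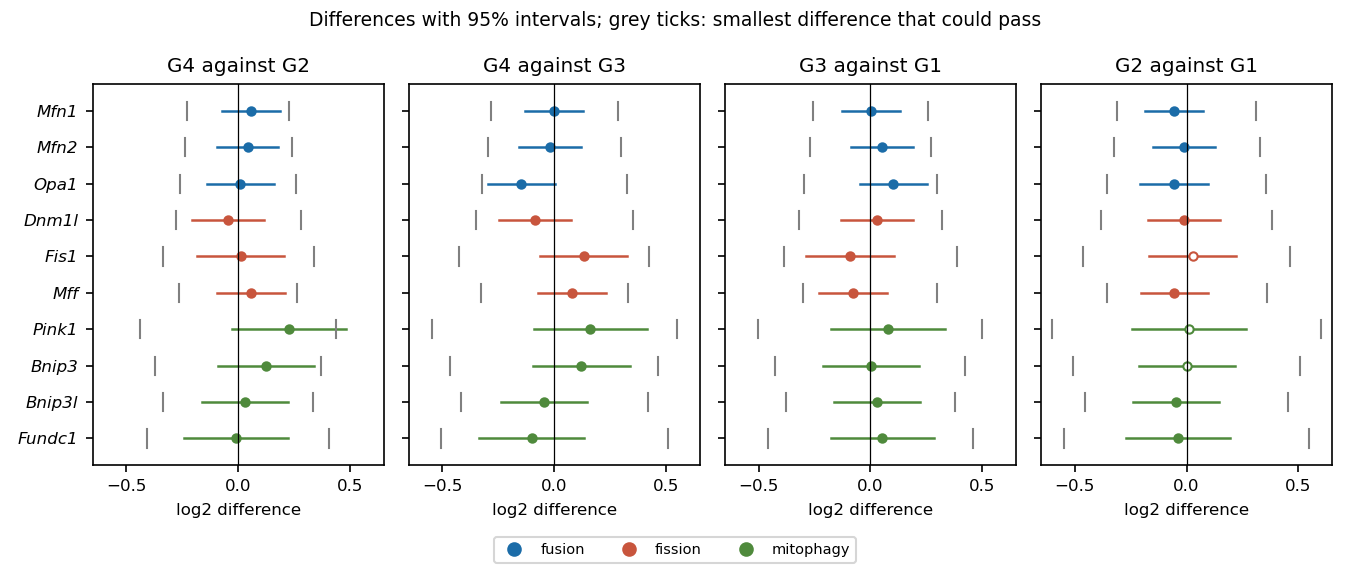
Log2 differences of the 10 genes in the 4 comparisons with 95% intervals, coloured by role, where open circles mark the 3 values rebuilt for G2 against G1 and grey ticks the smallest difference that could have passed an adjusted p of 0.05. Every interval includes 0, and the Pink1 value of 0.23 in G4 against G2 is the largest.

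The signs of the differences did not follow a single direction. For G4 against G2, 8 of 10 members were positive with a median log2 of 0.04, and for G3 against G1, 8 of 10 were positive with a median of 0.03. For G4 against G3, 4 of 10 were positive with a median of -0.01, and for G2 against G1, 3 of 10 were positive with a median of -0.02. Over all genes with a total of at least 100 the medians lay from -0.00099 to 0.0036, and the share of positive values lay between 49.7% and 50.9%. The 3 fusion genes were all positive for G4 against G2 and for G3 against G1, and all negative for G4 against G3 and for G2 against G1. Of the 4 mitophagy genes, 3 were positive for G4 against G2 and 4 for G3 against G1. Because the comparisons share groups, these counts are not independent of each other.

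Averaging 2 comparisons narrows the errors. The average of G4 against G2 and G3 against G1 called 1.65% of genes and 0 of the 10 members (9.74% of genes had an unadjusted p under 0.05), and the limits for a call among members were 0.16 to 0.31. Pink1 had the largest average, at 0.15 (SE 0.09, adjusted p = 0.657), followed by Bnip3 at 0.06 and Opa1 at 0.06. The average of G4 against G3 and G2 against G1 called 0.0452% of genes and 0 of 10 members (unadjusted, 3.12% of genes). In it Opa1 was lowest at -0.10 (SE 0.05, adjusted p = 0.9995) and Pink1 highest at 0.09 (SE 0.09). The difference between G4 against G2 and G3 against G1 called 0.00645% of genes and 0 of 10 members (unadjusted, 4.12% of genes). It is the interaction of the 2 factors if G1 and G4 differ in both diet and genotype, and it is called the interaction below. Its largest member values were 0.15 for Pink1 (SE 0.18) and 0.13 for Mff (SE 0.11), with adjusted p-values of 0.9997. Over all 7 contrasts, 0 of 70 member values had an unadjusted p under 0.05.

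**Figure D3:**
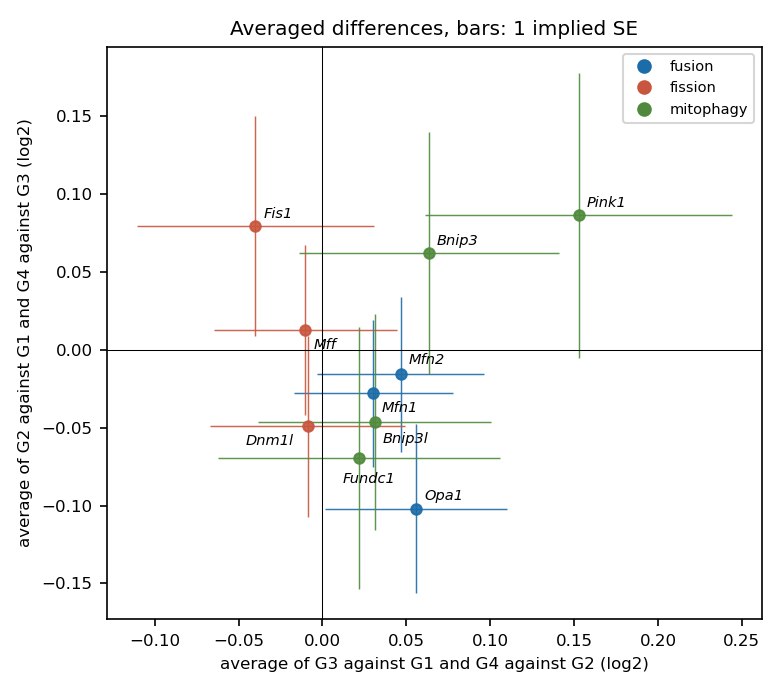
Average of G4 against G2 and G3 against G1 (horizontal) set against the average of G4 against G3 and G2 against G1 (vertical) for the 10 genes, both as log2 differences with bars of 1 implied SE. Pink1 lies farthest to the right at 0.15 and Opa1 lowest at -0.10, and both have adjusted p-values over 0.05.

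As a description with no test, the median range of the 10 genes over the 4 group levels was 0.09 on the log2 scale, against a median of 0.15 for the 6237 genes with totals between those of Fundc1 and Pink1, and 22% of those genes had a range below 0.09. The CV between mice ran from 5.55% for Mfn1 to 10.9% for Pink1, against a median of 8.40% and quartiles of 6.96% and 10.9% for those genes.

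Other genes of mitochondrial shape held 1 call in the 4 comparisons. Marchf5 (chromosome 19, 37207543 to 37222151), which encodes a ubiquitin ligase of the outer membrane that acts on Dnm1l, Mfn1 and Fis1 products, had 1363 reads per library in G4, 1179 in G3, 1110 in G2 and 1152 in G1. It rose in G4 against G2, with a log2 difference of 0.30 in the authors' deposited table (implied SE 0.07, adjusted p = 0.0117), which is below a 1.5-fold change. For G4 against G3 its log2 difference was 0.21 (adjusted p = 0.746), and for G3 against G1 it was 0.03 in the authors' deposited tables. Its interaction of 0.26 had an unadjusted p of 0.0132 and an adjusted p of 0.9997, so the difference between its values for G4 against G2 and for G3 against G1 did not pass the test. The pseudogenes Gm7684 and Gm8641 matched it at 95.5% and 96.4% and held 8.75% and 4.66% of its total. Of the 11 fission genes measured outside the 10, 1 rose and 0 fell in G4 against G2, with a median log2 of 0.06, and 0 passed in the other 3 comparisons, where the unadjusted p was under 0.05 for 2 in G4 against G3 and for 0 in the other 2. Gdap1 had the lowest value in G4 against G2, at -0.30 (SE 0.27) in the authors' deposited table.

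Of the 12 other genes of fusion and cristae remodelling measured, 0 passed in any of the 4 comparisons, with a median log2 of 0.10 for G4 against G2 and 0.0096 for G3 against G1. Their unadjusted p was under 0.05 for 4 of 12 in G4 against G2, where it was for 9.06% of all genes, and for 1 of 12 in G4 against G3. The count was 1 of 12 for G3 against G1 and 0 of 12 for G2 against G1. Phb2, which encodes a prohibitin of the inner membrane, had 3368 reads per library in G4, 3305 in G3, 2893 in G2 and 2983 in G1. Both G4 and G3 stood above G2 and G1. It rose in the average of G4 against G2 and G3 against G1, at 0.18 (SE 0.05, adjusted p = 0.0271), and was named after that value was seen.

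The autophagy genes that act after the receptors gave no call. Of 20 other mitophagy receptors and regulators measured, 0 passed in any comparison and 0 had an unadjusted p under 0.05, with medians of 0.03 for G4 against G2, 0.02 for G4 against G3, -0.0025 for G3 against G1 and -0.02 for G2 against G1. Nipsnap1, which encodes a mitochondrial protein that binds autophagy adaptors, had the lowest value in G4 against G2, at -0.27 (SE 0.58) in the authors' deposited table. Its level was low, at 8.90 reads per library in G4, 11.2 in G3, 10.7 in G2 and 9.13 in G1, with a CV of 37.5%. It was given no adjusted p in G4 against G2. Of 26 genes of the autophagy core, 0 passed in any comparison, with medians from -0.0041 to 0.04, and an unadjusted p under 0.05 was found for 2 in G4 against G2, for 3 comparing G3 with G1 and for 0 in the other 2 comparisons. In G4 against G2 Gabarapl1, which encodes an LC3 relative, had the highest value, at 0.41 (SE 0.25, adjusted p = 0.676) in the authors' deposited table, with 3000 reads in G4, 2317 in G3, 2265 in G2 and 2270 in G1. Its G4 level stood above the other 3, which partly follows from naming it by its value in G4 against G2, and its CV between mice was 21.2%. Of 5 genes of mitochondrial transport along microtubules, 0 passed and 0 had an unadjusted p under 0.05 in any comparison, and the highest value in G4 against G2 was 0.15 for Trak1 (SE 0.08) in the authors' deposited table.

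Known targets of transcription factors linked to these genes were set beside them. Of 13 FoxO targets of muscle, 0 passed in any comparison and 1 had an unadjusted p under 0.05, in G4 against G3, with a median of 0.06 in G4 against G2, from 0.41 for Gabarapl1 to -0.20 for Fbxo32 in the authors' deposited table. Of 13 HIF-1 targets, 0 passed in any comparison, with a median of 0.10 in G4 against G2 and -0.12 in G3 against G1. Their unadjusted p was under 0.05 for 1 in G4 against G2 and 1 in G4 against G3, for 3 comparing G3 with G1, and for 0 comparing G2 with G1. Ddit4 had the highest value of these in G4 against G2, at 1.06 (SE 0.67), and Ankrd37 the lowest, at -0.45, in the authors' deposited table. The 13 protein-coding genes of the mitochondrial genome were all positive in G4 against G2, with a median of 0.21, and all positive in G3 against G1, with a median of 0.14. These 13 genes belong to 1 genome, so the counts that follow are not 13 independent results. They gave 0 calls in the 4 comparisons, and 10 of 13 had an unadjusted p under 0.05 in G4 against G2, as did 2 of 13 for G3 against G1 and 0 of 13 in the others, against 9.06% and 5.63% of all genes in the first 2. In the average of those comparisons mt-Co1, a subunit of cytochrome oxidase, rose by 0.18 (SE 0.05, adjusted p = 0.0180), a call that was lost after trends on GC content, length and total were removed (0.14, adjusted p = 0.103). It was named after that value was seen. The median of the 10 fusion, fission and mitophagy genes in that average was 0.03.

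**Figure D4:**
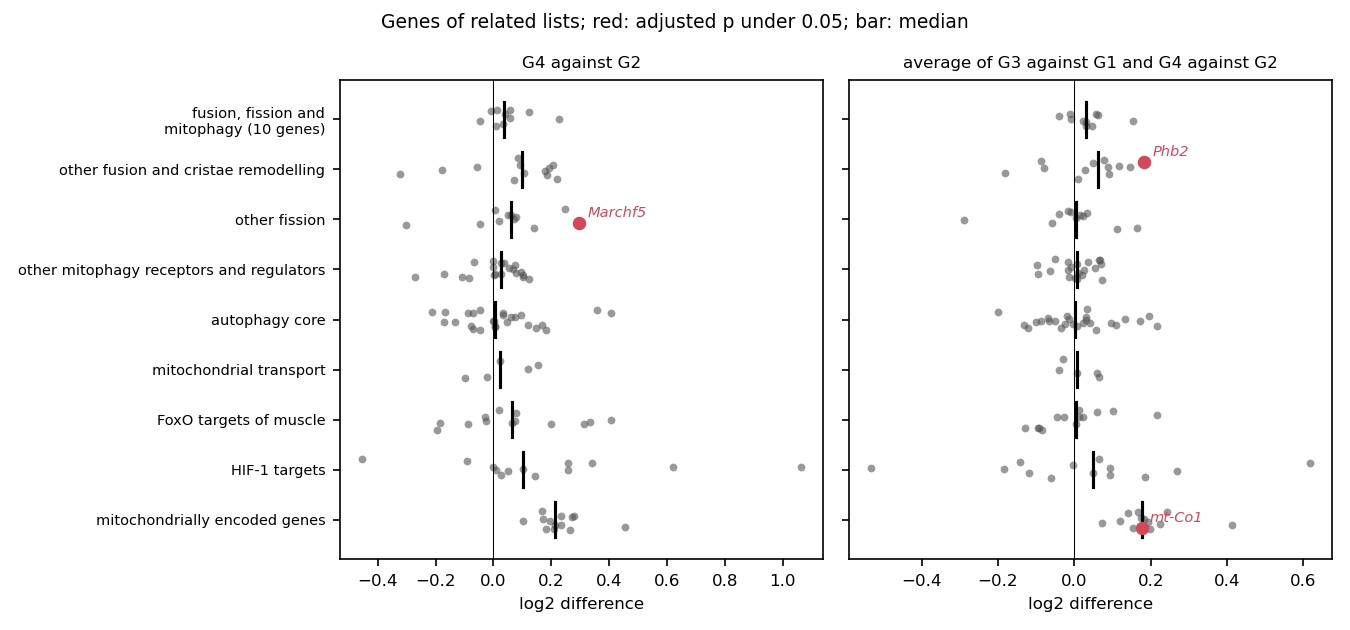
Log2 differences for G4 against G2 (left) and for the average of G4 against G2 and G3 against G1 (right) for the 10 genes and 8 related lists, 1 point per gene, with black bars at the medians and red points at an adjusted p under 0.05. The 10 genes centre on 0.04 and 0.03, and the mitochondrially encoded genes lie to the right of 0 in both panels.

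Markers of other cell types also differed in level between the groups, mostly without passing the test. In G4 against G2 all 12 endothelial markers were positive with a median of 0.21, and their summed level was 714 CPM in G4, 659 in G3, 590 in G2 and 644 in G1. For G3 against G1, 5 of the 12 were positive with a median of -0.0027. The 10 slow fibre markers were all positive in G2 against G1, with a median of 0.33. Their values there were rebuilt from the other comparisons, because rises are missing from the deposited one. Their unadjusted p, rebuilt likewise, was under 0.05 for 7 of 10, where it was for 2.35% of all genes with a total of at least 100. These 10 genes mark a single fibre type and were chosen with earlier results of these data known. The counts are thus not 10 independent results. In G4 against G2, 0 of the 10 were positive, with a median of -0.23. There the unadjusted p was under 0.05 for 4 of 10, beside 9.06% of those genes. In both comparisons 0 of the 10 slow fibre markers passed an adjusted p of 0.05. Eng, a co-receptor of endothelial cells, passed the test in G4 against G2 at 0.66 (adjusted p = 0.0283), and so did Fabp4, of fat and capillary cells, at 0.37 (adjusted p = 0.0254) in the authors' deposited table, and both calls were lost after trends on GC content, length and total were removed (log2 0.61, adjusted p = 0.0675 for Eng and log2 0.34, adjusted p = 0.0642 for Fabp4). Lum, of fibroblasts, passed in G3 against G1 at 0.58 (adjusted p = 0.0128) in the authors' deposited table, and the 6 fibroblast markers summed to 637 CPM in G4, 764 in G3, 630 in G2 and 665 in G1. Macrophage markers summed to 113 CPM in G4, 114 in G3, 93.0 in G2 and 127 in G1. Gene by gene, 0 of 12 were positive in G2 against G1, with a median of -0.42, and 7 of 12 in G4 against G2. Fast fibre markers summed to 46315 CPM in G4, 44389 in G3, 50596 in G2 and 53995 in G1. In G3 against G1, 1 of the 12 was positive, with a median of -0.35 and an unadjusted p under 0.05 for 6. In G4 against G2, 0 of the 12 were positive, with a median of -0.17, and in G4 against G3 11 were, with a median of 0.08. None passed in the 4 comparisons. Casq1, the calcium store protein of fast fibres, fell by 0.26 in the average of G4 against G2 and G3 against G1 (SE 0.07, adjusted p = 0.0298), named after that value was seen. Erythroid markers summed to 148 CPM in G4, 171 in G3, 112 in G2 and 180 in G1, and Schwann cell markers to 85.9 CPM in G4, 90.4 in G3, 82.7 in G2 and 99.8 in G1. Of the 5 erythroid markers with a total of at least 100, 0 were positive in G2 against G1, with a median of -0.70, and 5 in G4 against G2. Adipocyte markers summed to 4386 CPM in G4, 4213 in G3, 4223 in G2 and 4028 in G1, a sum held mostly by Lpl and Car3, which muscle fibres also express. Gene by gene, 1 of the 10 adipocyte markers was positive in G2 against G1, with a median of -0.68. The 10 fusion, fission and mitophagy genes summed to 2918 CPM in G4, 2811 in G3, 2701 in G2 and 2721 in G1. The part of these markers in the values of Marchf5 and Pink1 was not tested.

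Sequences around transcript starts were read for the members from RefSeq (GRCm38.p6), as windows from 250 bases before to 50 bases after each start. Windows were found for 9 of 10 members, 14 in all, and Bnip3l had none in the table. Motifs were searched on both strands as CCGGAAG (ETS factors such as GABPA), ACGTG (the core of the hypoxia response element), GTAAACA (FoxO), AAGGTCA (nuclear receptors such as ERR) and the palindromic consensus of NRF1, a factor of nuclear genes for mitochondria. CCGGAAG was held by 3 of 9 members (Mfn1, Dnm1l and Fis1) and by 19.3% of 10549 genes with a window and a total of at least 100. ACGTG was held by 2 of 9 members (Mfn2 and Bnip3) and by 28.8% of those genes, and the NRF1 consensus by 1 of 9 members (Opa1) and by 3.13%. GTAAACA and AAGGTCA were held by 0 of 9 members and by 3.2% and 3.95% of those genes. Of all 32851 windows, 8.86% held CCGGAAG, 19.6% ACGTG, 1.27% the NRF1 consensus, 3.65% GTAAACA and 4.72% AAGGTCA.

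The windows of 3 genes are shown 5′ to 3′ on the strand of the gene, 1 for each motif found, with the match in capitals: the NRF1 consensus in Opa1, CCGGAAG in Mfn1, and ACGTG with its overlapping reverse match in Bnip3. They are chr16:29579084-29579383 on the plus strand for Opa1, chr3:32529232-32529531 on the plus strand for Mfn1 and chr7:138909457-138909756 on the minus strand for Bnip3.
Opa1: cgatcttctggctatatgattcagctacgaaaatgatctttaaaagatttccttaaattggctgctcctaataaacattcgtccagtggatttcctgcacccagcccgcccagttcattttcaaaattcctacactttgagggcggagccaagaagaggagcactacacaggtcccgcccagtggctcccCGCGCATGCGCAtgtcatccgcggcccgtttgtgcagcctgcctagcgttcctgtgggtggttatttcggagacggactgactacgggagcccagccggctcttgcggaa
Mfn1: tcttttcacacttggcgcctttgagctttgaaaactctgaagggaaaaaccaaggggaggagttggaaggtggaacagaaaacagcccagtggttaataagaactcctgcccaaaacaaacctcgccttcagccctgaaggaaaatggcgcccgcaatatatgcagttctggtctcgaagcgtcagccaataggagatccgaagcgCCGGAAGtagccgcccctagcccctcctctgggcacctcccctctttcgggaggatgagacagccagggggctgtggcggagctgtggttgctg
Bnip3: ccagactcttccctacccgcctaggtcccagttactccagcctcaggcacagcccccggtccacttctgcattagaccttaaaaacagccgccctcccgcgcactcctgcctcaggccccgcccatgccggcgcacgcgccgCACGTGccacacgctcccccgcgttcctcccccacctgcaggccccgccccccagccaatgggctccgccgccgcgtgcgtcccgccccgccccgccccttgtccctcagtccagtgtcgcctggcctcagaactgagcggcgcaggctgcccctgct
Counted from the start, the match began at base -60 in Opa1, -44 in Mfn1 and -108 in Bnip3. In G4 against G3, Opa1 was at -0.15, Mfn1 at -0.00084 and Bnip3 at 0.12 by the authors' deposited table, and none of the 3 passed the test. A match is a description of letters, and binding was not measured.

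**Figure D5:**
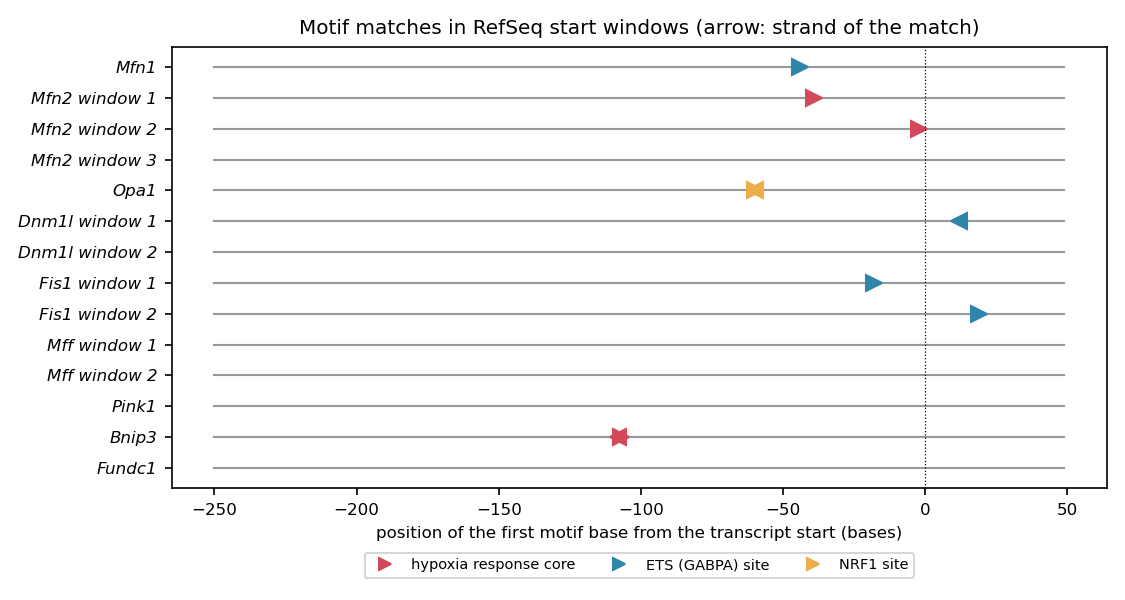
Positions of motif matches in the 14 RefSeq windows of 9 members, in bases from the transcript start, with 1 line per window and arrows for the strand of the match. The NRF1 consensus appears in Opa1, ETS matches in Mfn1, Dnm1l and Fis1, and hypoxia core matches in Mfn2 and Bnip3.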

How the data were processed

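Per the labels' protocols, libraries from the soleus of 12 mice were stranded mRNA libraries (KAPA). The tools named in the submitters' processing notes are RSEM 1.2.15, Bowtie2 2.1.0 and edgeR, with the mm10 or GRCm38 build. Their roles, and whether counting used strand, are not given in the sources used here. The deposited totals are a signal: reads divided by library size factors and summed by the authors over the 12 libraries. For each gene and comparison the authors deposited, per the file headers, a log2 difference, the same as a signed fold score, a p-value and its step-up adjustment. Of the 28997 genes, 15652 are listed for G2 against G1, 7 members among them. Rises are missing from that comparison as deposited. The 7 listed members were all negative in it, and the 3 rebuilt members were all positive.

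The members and lists were chosen with earlier results of these data known, so their counts beside those of all genes are a description. Because no table holds values per library, the authors' p-values are the main test. Implied SEs are the log2 difference divided by the normal quantile of its p. The other 3 comparisons gave the difference between G2 and G1 by addition and subtraction for Fis1, Pink1 and Bnip3. The same was done for every other gene not listed there, the slow fibre markers among them. Where a deposited value exists (7792 genes with totals from 100 up) this differed from the deposited log2 by at most 1.0e-14. Averages and the interaction were adjusted over 15494 genes by the Benjamini-Hochberg procedure. These steps were tested on simulated data.

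All members are named, with list genes called in any of the 4 comparisons, the highest or lowest value of a list in the comparison described, and the 3 genes nearest to the member of widest range. Phb2, mt-Co1 and Casq1 fall outside this rule and were named because the average called them. The values of 1 list gene are not reported here. Coordinates, lengths and copies (at least 90% identity over at least 200 bases) come from GENCODE M21 on GRCm38. The NRF1 consensus was adopted after matches to a shorter form of it in the same windows had been seen. Python 3.11.15, scipy 1.17.1 and R 4.3.3 were used. Alternatives were other sets of genes for the adjustment, median centring, removal of trends with splines of 4 degrees of freedom, rebuilt values, and a fold change of at least 1.5.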

Additional observations from a re-analysis of the deposited data

How the results depend on the processing

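The number of members called stayed at 0 under every alternative computed, and the lowest adjusted p of any member under any of them was 0.578, for Pink1 in the average of G4 against G2 and G3 against G1 with a total of at least 1000. Of the 351 member values under alternatives, 4 changed sign, all near 0. With trends on GC content, length and total removed, Mfn1 was at -0.0054 for G3 against G1 and 0.0036 for G4 against G3, and Fis1 at -0.021 for G4 against G2. Centred on the median of all genes, Bnip3l was at -0.0063 for the interaction. Marchf5 in G4 against G2 and Lum in G3 against G1 kept their calls unless a 1.5-fold change was required, which also removed Fabp4. Eng lost its call when adjusted over all genes (adjusted p = 0.0556) and with trends removed (log2 0.61, adjusted p = 0.0675), as did Fabp4 with trends removed (log2 0.34, adjusted p = 0.0642). No paired analysis was possible because the tables hold no value per library and the labels give the groups no shared replicate numbers. Leaving out each mouse in turn was not run for the same reason.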
